A study of Mus musculus with 4 samples.

Results

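Described here are 33 genes of cholesterol and fatty acid synthesis in sorted mouse beta cells, the insulin-producing cells of the pancreatic islet. They were chosen by name, all 33 were found among the 31017 gene names of the count tables, and all 33 passed the filter on low counts. They fall into 18 sterol enzymes, 6 genes of the control of SREBP (sterol regulatory element binding protein) and of sterol transport, and 9 fatty acid genes. Bulk RNA sequencing covered 4 libraries from wild type C57BL/6J males aged 10 weeks, 2 of cells sorted as CD63 high and 2 of cells sorted as CD63 low. CD63 is a tetraspanin protein found on vesicles of the endosomal and secretory routes. No treatment is named. Whether the replicates of a group are different mice or different sorts is not stated, and p-values then cover the spread between these libraries alone, which may be technical. Islets had been cultured overnight before dissociation and sorting.

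Cholesterol is built from acetyl-CoA through mevalonate, the isoprenoid pyrophosphates, squalene and lanosterol, and fatty acids are built from the same acetyl-CoA through malonyl-CoA. Both branches are transcribed under SREBP2 and SREBP1, membrane-bound factors of the endoplasmic reticulum that SCAP escorts to the Golgi for cleavage when sterols are scarce and that the INSIG proteins hold back when sterols are plentiful. In beta cells, cholesterol is a component of the insulin granule membrane, and citrate-derived acetyl-CoA is one of the routes by which glucose carbon leaves the mitochondria.

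The libraries held 29249270 to 35003307 counts, so that 1 CPM (a count as a share of library size, scaled between libraries with TMM factors of 0.921 to 1.11) stood for 27.7 to 39.0 counts. Ins1 and Ins2, the insulin genes, made up 48.7% to 56.4% of counts, which fits the beta cell label. Cd63 itself rose in the CD63 high group, as a check of the sort (log2 difference 0.81, SE 0.19, edgeR adjusted p 0.0484), though it passed in 7 of 13 alternatives and missed the threshold when either CD63 high library was left out (edgeR adjusted p 0.0531 and 0.178) and when CD63 low replicate 2 was (0.0850). Markers of other cells moved with the groups. Of the macrophage markers 10 of 11 rose in CD63 high cells, with summed levels of 211 and 942 CPM against 40.0 and 64.2 CPM, and Ptprc, the leukocyte antigen, was at 1.31 and 4.73 CPM against 0.033 and 0.180 CPM. Of the alpha cell markers 2 of 7 rose (summed 5388 and 6079 CPM against 429 and 480 CPM, with Gcg at 4987 and 5646 against 180 and 287 CPM). The delta markers rose in 3 of 4 cases (summed 452 and 889 against 73.4 and 43.8 CPM, led by Sst) and the gamma markers in 3 of 3 (2334 and 4113 against 559 and 279 CPM, led by Ppy). Acinar markers rose in 6 of 12 cases (908 and 1289 against 22.3 and 283 CPM, with Prss2 at 209 and 283 against 4.58 and 66.4 CPM), and so did 1 of 7 duct markers (summed 2539 and 1375 against 704 and 683 CPM). No endothelial, mesenchymal, adipocyte or Schwann cell marker passed the test, and Adipoq, Plin1, Lep, Cdh5, Pdgfra, Ngfr and the duct gene Cftr were at 0 in all 4 libraries. Of the 10 beta cell markers 4 fell (median log2 fold change -0.70), while their summed level, nearly all of it insulin, overlapped between the groups at 534200 and 618800 CPM against 674400 and 482000 CPM. The part of these other cells in the results below was not tested, and in bulk samples fewer cells of a type and less RNA per cell cannot be told apart.

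Most of the pathway was lower in CD63 high cells, and 2 genes passed the test. Insig1, whose protein holds SREBP back when sterols are plentiful, fell 2.32-fold and Scd2, a stearoyl-CoA desaturase, fell 2.39-fold. The other 31 members did not pass edgeR's quasi-likelihood test at a Benjamini-Hochberg adjusted p of 0.05 over 13241 tested genes. Among all tested genes 2.79% were called, with 0.287% lower and 2.50% higher in CD63 high cells. The log2 fold change (CD63 high over CD63 low) was below 0 in 29 of the 33 members, against 51.4% of all tested genes, with a median of -0.46 against -0.01. An unadjusted p under 0.05 was reached by 10 members in the lower and 1 in the higher direction, where 5.96% and 8.95% of all tested genes did so. Both CD63 high libraries lay below both CD63 low libraries for 23 members, against 22.2% of all tested genes, and above them for 2 members, against 23.8%. By branch, the sterol enzymes had a median of -0.36 (15 of 18 below 0, none called), the SREBP control genes -0.74 (6 of 6 below 0, 1 called) and the fatty acid genes -0.46 (8 of 9 below 0, 1 called).

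**Figure D1:**
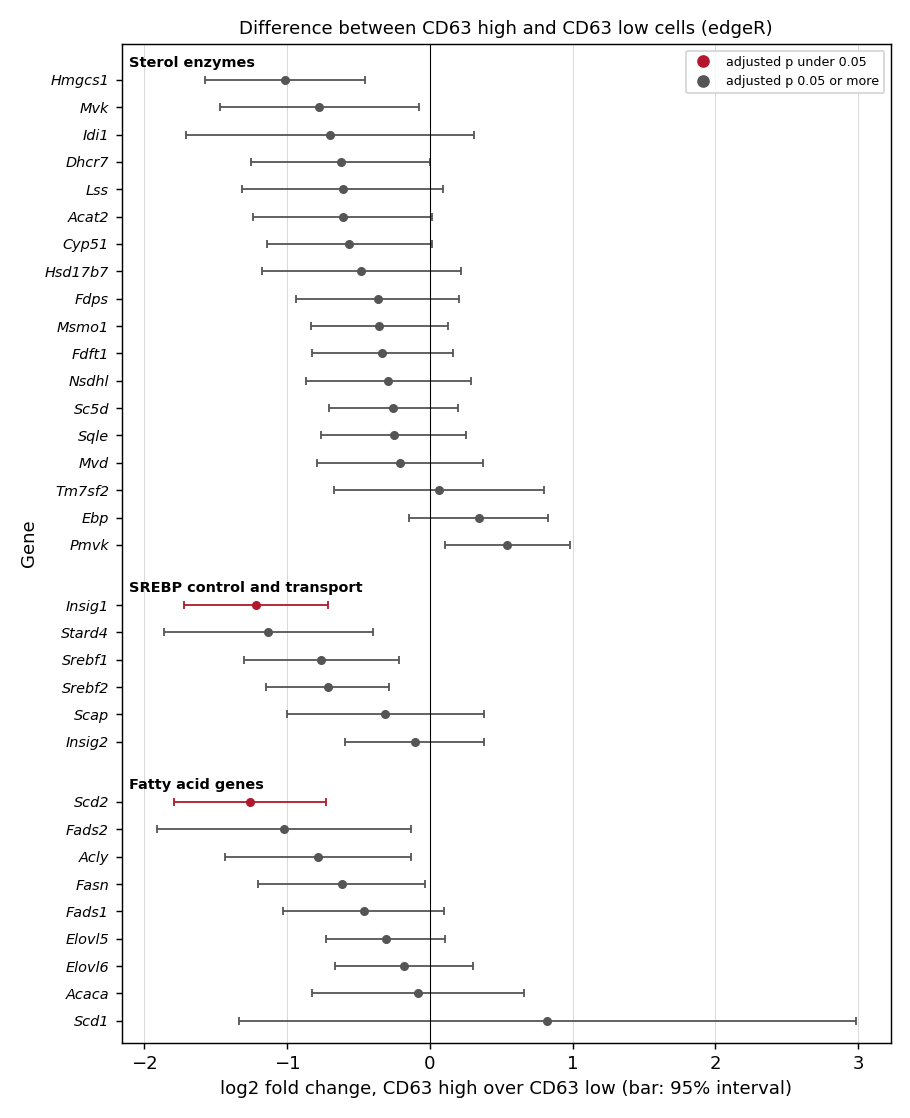
Each point is the log2 fold change of one member, CD63 high over CD63 low, with its 95% interval from the edgeR fit on the x axis, grouped by branch on the y axis. Points of 29 members lie left of 0, and the 2 genes past the threshold, Insig1 and Scd2, are in red.

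One library set much of the size of these differences. CD63 low replicate 2 had the highest level of the 4 libraries for 27 of the 33 members (81.8%), against 29.2% of all tested genes, and was at least 1.5-fold above CD63 low replicate 1 for 14 members, against 15.4% of all tested genes. The median ratio of CD63 low replicate 2 to replicate 1 was 1.17 for the sterol enzymes, 1.23 for the SREBP control genes and 1.52 for the fatty acid genes, and 1.00 for all tested genes. With 1 library left out, the lone library of its group is assumed to vary like the pair of the other group, which alone gives the spread between replicates, and calls from such fits are no independent support. Without CD63 low replicate 2 the branch medians were -0.18, -0.48 and -0.19, with 27 of 33 members below 0. Insig1 was then at -0.99 and Scd2 at -0.87. Without CD63 low replicate 1 the medians were -0.51, -0.93 and -0.73, and 10 members passed, all lower in CD63 high cells, against 1.84% of all tested genes. The single CD63 low library of that comparison is the one with the highest level for 27 members. Without CD63 high replicate 1 the members called were Acly and Scd2 (0.576% of all tested genes were lower and called), and without CD63 high replicate 2 they were Insig1 and Scd2 (0.52%). The 10 called without CD63 low replicate 1 were Insig1, Scd2, Hmgcs1, Lss, Cyp51, Dhcr7, Srebf1, Srebf2, Acly and Fasn. The members differ in which libraries their fold change rests on. For Insig1, Scd2, Stard4, Srebf2, Hmgcs1 and Fads2 both CD63 low libraries stood at least 1.5-fold above the mean of the CD63 high libraries. For Lss, Fdps, Cyp51, Sqle, Scap, Acly, Fasn, Idi1, Dhcr7 and Fads1 CD63 low replicate 1 lay between 0.868 and 1.16 times that mean. In these genes CD63 low replicate 2 was 1.515 to 1.97 times CD63 low replicate 1. The summed acinar markers were also higher in CD63 low replicate 2 than in replicate 1 (283 against 22.3 CPM), and the summed beta cell markers lower, and their part in these values was not tested.

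**Figure D2:**
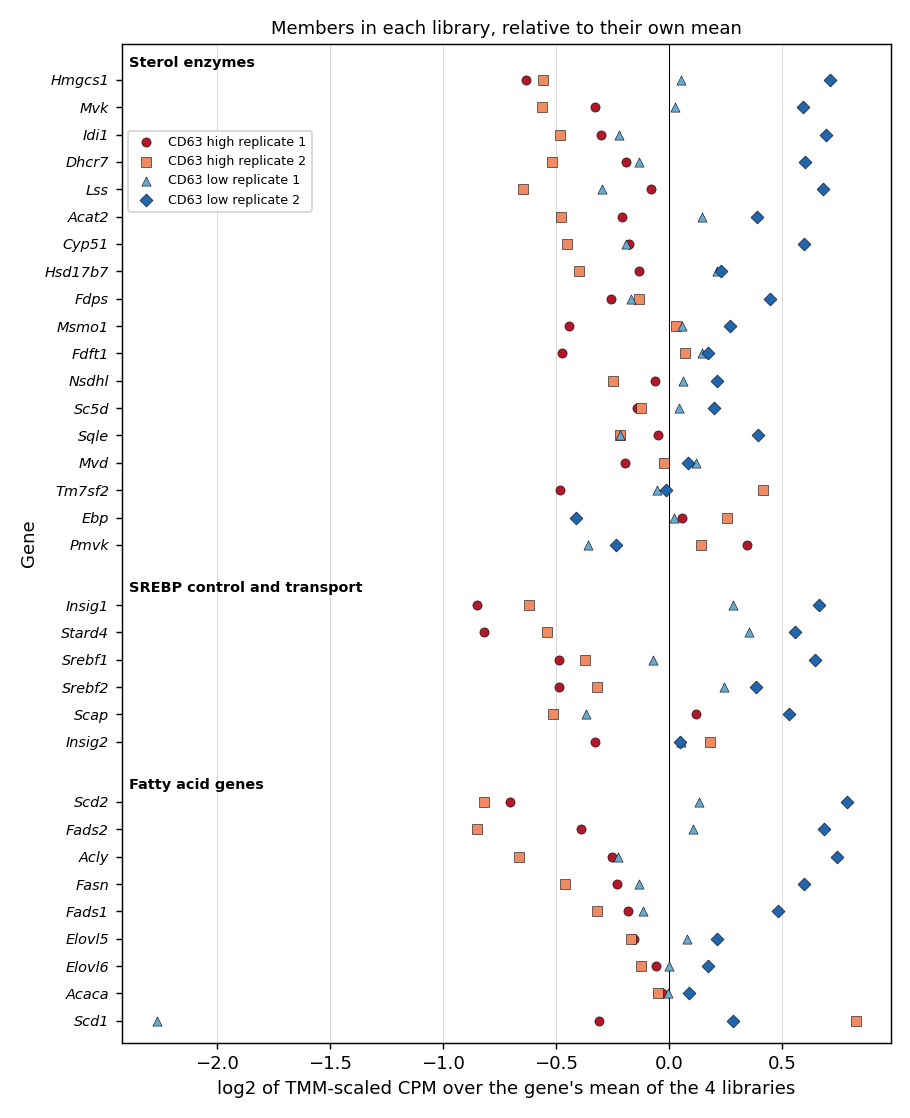
The x axis gives each library's TMM-scaled CPM over the gene's mean of the 4 libraries, on a log2 scale, and the y axis the members by branch. The dark blue diamonds of CD63 low replicate 2 are the rightmost points for 27 of 33 genes, while the light blue triangles of CD63 low replicate 1 sit near the red and orange points of CD63 high cells for genes such as Lss, Cyp51 and Acly and apart from them for Insig1, Stard4 and Scd2.

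Upstream sequences of 4 members are shown because they carry the called gene Insig1, the one sterol response element-like match, a factor of the pathway and the fatty acid synthase gene. They are RefSeq promoters of GRCm38.p6, the build of the counts (mm10), read 5′ to 3′ on the gene's strand and ended before the gene start of the counting annotation. Capitals mark 4 motifs searched on both strands. The sterol response element-like motif is spelled TCACNCCAC. The E-box is spelled CACGTG. The CCAAT box is spelled CCAAT and reads ATTGG on the other strand. The GC box is spelled GGGCGG and reads CCGCCC on the other strand. Matches may overlap, as the pair of CCAAT box matches of opposite strands in Fasn does. The windows are chr5:28071162-28071362 (+) for Insig1, chr13:119690101-119690350 (+) for Hmgcs1, chr15:82147019-82147180 (+) for Srebf2 and chr11:120824548-120824797 (-) for Fasn.
Insig1: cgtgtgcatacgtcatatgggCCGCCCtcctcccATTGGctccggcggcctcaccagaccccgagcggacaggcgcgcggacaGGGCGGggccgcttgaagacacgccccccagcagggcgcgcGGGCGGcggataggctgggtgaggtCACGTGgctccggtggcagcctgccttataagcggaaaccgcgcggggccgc
Hmgcs1: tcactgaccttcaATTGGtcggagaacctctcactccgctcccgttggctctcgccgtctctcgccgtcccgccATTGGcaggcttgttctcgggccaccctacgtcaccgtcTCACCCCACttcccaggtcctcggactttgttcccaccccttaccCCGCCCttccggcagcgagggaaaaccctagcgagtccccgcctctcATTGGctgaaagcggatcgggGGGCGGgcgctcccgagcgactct
Srebf2: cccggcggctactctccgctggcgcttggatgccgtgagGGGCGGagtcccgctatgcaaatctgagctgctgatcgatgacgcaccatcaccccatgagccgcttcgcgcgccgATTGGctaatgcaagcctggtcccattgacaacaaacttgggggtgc
Fasn: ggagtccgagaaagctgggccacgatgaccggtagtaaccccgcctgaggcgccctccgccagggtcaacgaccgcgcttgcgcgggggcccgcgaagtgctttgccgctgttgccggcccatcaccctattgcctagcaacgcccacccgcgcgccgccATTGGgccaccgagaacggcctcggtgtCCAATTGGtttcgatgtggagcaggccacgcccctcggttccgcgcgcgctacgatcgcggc

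RefSeq promoters were matched for 26 of the 33 members (the others being Fdps, Fdft1, Sqle, Stard4, Scd1, Scd2 and Fads1), and the 250 bases before the start were searched. A CCAAT box stood before 20 of these 26 genes, against 37.5% of all 27025 genes with a promoter in the table, and a GC box before 21, against 35.4%. Those 27025 genes were not limited to genes that passed the filter on low counts, as the members did. A match before any start of a gene counted, and the 26 members had 34 promoters, against 32851 for the 27025 genes. By branch, of 15 sterol enzymes 14 had a CCAAT box and 14 a GC box, of 5 SREBP control genes 4 and 5, and of 6 fatty acid genes 2 and 2. An E-box stood before 6 genes (Insig1, Scap, Dhcr7, Hsd17b7, Sc5d and Elovl5), against 6.86% of all genes, and TCACNCCAC before Hmgcs1 alone among the members, against 1.22%. Positions are counted back from the RefSeq start, and the printed Insig1 and Srebf2 sequences end before that start. In Hmgcs1 the match TCACCCCAC lay at -137 to -129, between CCAAT box matches that begin at -176 and -45. In Insig1 the E-box lay at -101 to -96. A match is a string of letters and no evidence that a factor binds, and these letters being absent from a window says nothing about other sites.

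The SREBP control genes had the lowest median of the 3 branches. Insig1 (chromosome 5, 28071363 to 28078662, mm10) retains the SCAP and SREBP complex in the endoplasmic reticulum and is itself a target of SREBP. Values are given here and below in the order of replicates 1 and 2. It stood at 19.5 and 22.9 CPM (CD63 high) against 42.7 and 55.7 CPM (CD63 low). Both CD63 high libraries lay below both CD63 low libraries, and the lower CD63 low library was at 2.01 times the CD63 high mean. Means were 21.2 ± 2.38 CPM and 49.2 ± 9.16 CPM (SD, n = 2 each). The log2 fold change was -1.21 (SE 0.23, edgeR adjusted p 0.0182), and it was -1.40 to -0.99 with 1 library left out. It was not called when CD63 high replicate 1 was left out (edgeR adjusted p 0.0504) or with library size as the only scaling (0.112). Insig2, its relative that is not induced by SREBP, was at 47.6 and 67.7 CPM (CD63 high) against 62.1 and 61.9 CPM (CD63 low). These groups overlapped, with a log2 fold change of -0.10 (95% interval -0.59 to 0.38), and the sign turned without CD63 high replicate 1 (0.13). In TPM, counts per exon length scaled to one total in every library, Insig2 was at 2.17 and 2.63 times the TPM of Insig1 in the CD63 high libraries and at 1.29 and 0.99 times in CD63 low replicates 1 and 2.

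Both SREBP genes were lower in both CD63 high libraries without passing the test. Srebf2 (chromosome 15, 82147181 to 82205379, mm10), which encodes the factor of the sterol branch, was at 57.0 and 64.0 CPM (CD63 high) against 94.4 and 104 CPM (CD63 low). Within each group its libraries were close, and the log2 fold change was -0.72 (SE 0.19, edgeR adjusted p 0.0863). DESeq2 gave it an adjusted p of 0.0179. Srebf1 (chromosome 11, 60199089 to 60222581, mm10), which encodes the factor of the fatty acid branch, was at 61.1 and 66.2 CPM (CD63 high) against 81.6 and 134 CPM (CD63 low). Its log2 fold change of -0.76 (SE 0.25, edgeR adjusted p 0.151) was -0.34 without CD63 low replicate 2 and -1.08 without CD63 low replicate 1. Per length, Srebf1 was at 1.37 and 1.32 times the TPM of Srebf2 in CD63 high and at 1.10 and 1.64 times in CD63 low libraries, so the order of the pair was the same in all 4 libraries. Counts per gene name do not separate the Srebf1 transcripts that start at different promoters.

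Scap, which encodes the escort protein of SREBP, was at 37.4 and 24.1 CPM (CD63 high) against 26.7 and 49.7 CPM (CD63 low). These values overlapped, and the log2 fold change of -0.31 (SE 0.31) became 0.22 without CD63 low replicate 2. Stard4, a soluble carrier of cholesterol between membranes and a target of SREBP2, was at 3.45 and 4.19 CPM (CD63 high) against 7.78 and 8.94 CPM (CD63 low). The groups were separate and each was narrow, with a log2 fold change of -1.13 (SE 0.33) that missed the threshold (edgeR adjusted p 0.112). It came from 108 and 116 counts against 236 and 348 counts.

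The first steps of the sterol branch make and phosphorylate mevalonate. Acat2, the cytosolic thiolase, had a log2 fold change of -0.61 (SE 0.28, edgeR adjusted p 0.353). Of its 50-base windows 39.1% also occur in Acat3, and reads that match both were left out by the counting, so its level is uncertain. Hmgcs1 (chromosome 13, 119690379 to 119708260, mm10), HMG-CoA synthase, was at 20.2 and 21.3 CPM (CD63 high) against 32.4 and 51.2 CPM (CD63 low). Its CD63 high libraries were nearly equal and both CD63 low libraries stood above them. The log2 fold change of -1.01 (SE 0.25) missed the threshold (edgeR, adjusted p 0.0637), while DESeq2 gave 0.00935 and limma-voom did not call it. It was -0.63 without CD63 low replicate 2. Mvk, mevalonate kinase, was at 6.80 and 5.78 CPM (CD63 high) against 8.67 and 12.8 CPM (CD63 low), a log2 fold change of -0.77 (SE 0.31, edgeR adjusted p 0.276). Pmvk, the kinase of the next step (chromosome 3, 89454541 to 89469013, mm10), went the other way, at 77.7 and 67.5 CPM (CD63 high) against 47.7 and 52.0 CPM (CD63 low). Both CD63 high libraries were above both CD63 low libraries, with a log2 fold change of 0.54 (SE 0.20, edgeR adjusted p 0.209). The 2 successive kinases thus had opposite signs in these libraries, and neither passed the test.

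The isoprenoid steps were mixed in size and below 0 in sign. Mvd, which decarboxylates mevalonate pyrophosphate, had a log2 fold change of -0.21 (95% interval -0.79 to 0.37). Idi1, the isomerase that follows, was at 2.62 and 2.31 CPM (CD63 high) against 2.77 and 5.21 CPM (CD63 low), so its log2 fold change of -0.70 (SE 0.46) came mostly from CD63 low replicate 2 and was -0.15 without it. Of the 50-base windows of Idi1 25.3% also occur under other gene names, most of them in Gm13502, so its level is uncertain. Fdps, farnesyl pyrophosphate synthase, was at 18.7 and 20.4 CPM (CD63 high) against 19.9 and 30.5 CPM (CD63 low). With CD63 low replicate 2 left out its log2 fold change went from -0.36 to -0.01. Its counts are uncertain as well, since 26.7% of its exon bases overlap Gm43738 on the same strand and 26.2% of its 50-base windows occur under other gene names. Fdft1, squalene synthase, was at 43.1 and 62.7 CPM (CD63 high) against 65.9 and 67.2 CPM (CD63 low), a log2 fold change of -0.33 (SE 0.22). Of the exon bases of Fdft1 18.3% overlap those of Ctsb on the other strand, a cathepsin gene that rose with CD63 (edgeR log2 difference 1.12, SE 0.21, adjusted p 0.0177, and 0.0830 without CD63 high replicate 2), and without strand information reads in that stretch cannot be assigned to either gene.

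Squalene is turned into lanosterol by Sqle and Lss. Sqle (chromosome 15, 59315077 to 59331192, mm10), squalene epoxidase, was the most abundant sterol enzyme per length, at 47.1 to 94.8 TPM. In CPM it stood at 207 and 185 (CD63 high) against 185 and 282 (CD63 low), with 3 libraries alike and CD63 low replicate 2 above them. Its log2 fold change was -0.25 (95% interval -0.76 to 0.26), and 0.10 without CD63 low replicate 2. Relative to Hmgcs1 per length, Sqle was at 8.50 and 7.18 times the TPM in CD63 high and 4.71 and 4.55 times in CD63 low libraries. This ratio within each library did not overlap between the groups. Neither did the ratios of Insig2 to Insig1, Scd2 to Scd1, Fads1 to Fads2 and Elovl5 to Elovl6. The share over other gene pairs was not computed, and the ratio of Sqle to Hmgcs1 was not tested. Of the exon bases of Hmgcs1 12.1% overlap Gm48342 on the other strand, so the level of Hmgcs1 may be an underestimate and the ratio too high. Lss, lanosterol synthase, was at 32.6 and 22.0 CPM (CD63 high) against 28.1 and 55.3 CPM (CD63 low), a log2 fold change of -0.61 (SE 0.32, and -0.02 without CD63 low replicate 2).

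From lanosterol to cholesterol, 8 members had log2 fold changes of -0.62 to 0.34. Cyp51, the lanosterol demethylase, was at 48.7 and 40.3 CPM (CD63 high) against 48.3 and 83.1 CPM (CD63 low), a log2 fold change of -0.56 (SE 0.26, edgeR adjusted p 0.356). Dhcr7, which completes cholesterol in one of the 2 end routes, was at 17.6 and 14.0 CPM against 18.3 and 30.3 CPM (-0.62, SE 0.28, edgeR adjusted p 0.339). Both followed CD63 low replicate 2, and without it stood at -0.10 and -0.19. Msmo1, Nsdhl and Hsd17b7, which remove the methyl groups at carbon 4, were at -0.35, -0.29 and -0.48, and Sc5d, the lathosterol desaturase, at -0.26. These 4 genes had CD63 high libraries below both CD63 low libraries, and CD63 low replicate 2 was 1.01 to 1.16 times replicate 1. Ebp, the sterol isomerase, stood at 46.1 and 53.0 CPM (CD63 high) against 44.9 and 33.3 CPM (CD63 low) (0.34, 95% interval -0.15 to 0.83). Tm7sf2, a sterol reductase, was at 6.96 and 12.9 CPM against 9.36 and 9.63 CPM (0.07, 95% interval -0.67 to 0.80). The 2 CD63 high libraries of Tm7sf2 lay on either side of the CD63 low libraries, and 47.2% of its exon bases overlap Vps51 on the same strand, which makes its counts uncertain.

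**Figure D3:**
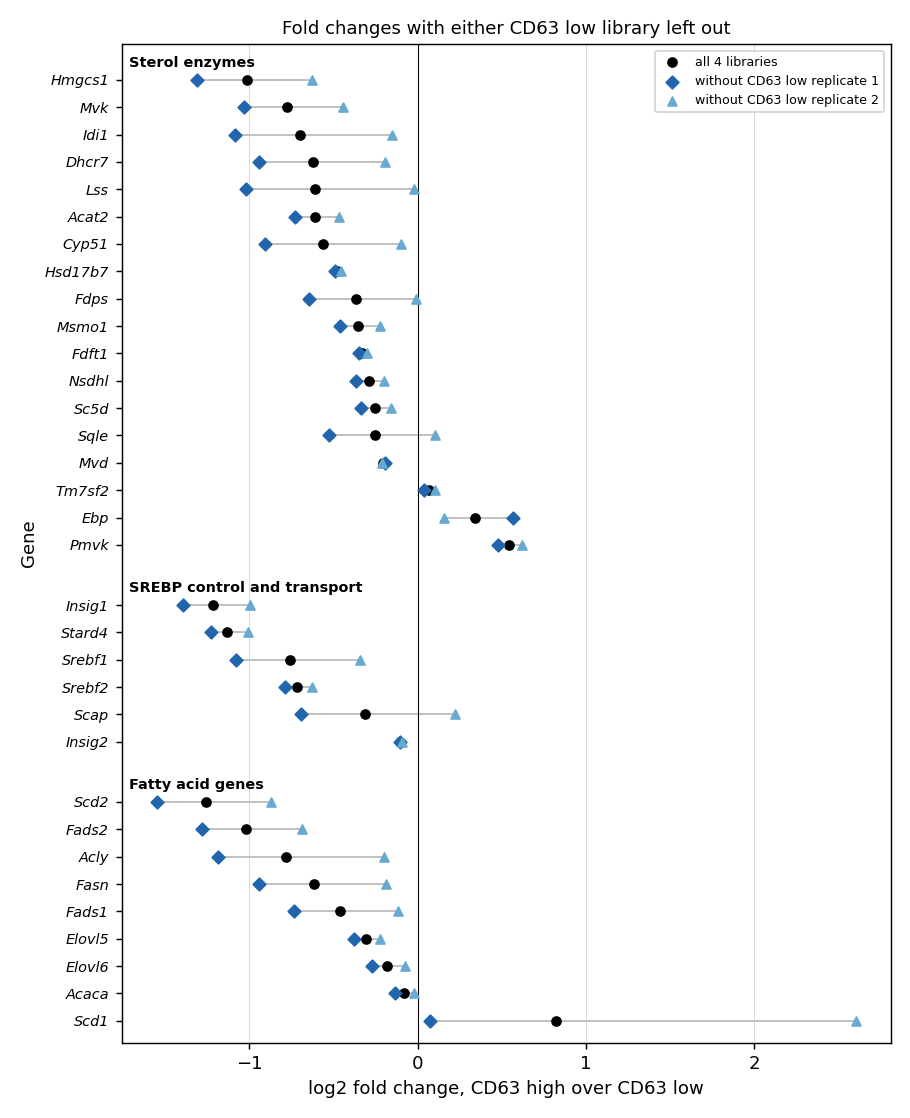
Log2 fold changes of the members, CD63 high over CD63 low, on the x axis with all 4 libraries (black), without CD63 low replicate 1 (dark blue) and without CD63 low replicate 2 (light blue). The gap between the blue symbols is widest for Scd1, which has few counts, wide for Idi1, Lss, Acly and Scap, and narrow for Hsd17b7, Fdft1, Mvd and Insig2, and Insig1 stays at -0.99 or below in all 3.

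The fatty acid branch opens with Acly, ATP citrate lyase, which splits citrate to cytosolic acetyl-CoA and so feeds the sterol branch as well. Acly (chromosome 11, 100476353 to 100528000, mm10) was the most abundant of all 33 members per length, at 305 to 1043 TPM, and held 79.8% to 86.1% of the summed TPM of the 9 fatty acid genes in each library. In CPM it was at 1481 and 1114 (CD63 high) against 1509 and 2951 (CD63 low). CD63 high replicate 1 and CD63 low replicate 1 were nearly equal, CD63 high replicate 2 lay below them and CD63 low replicate 2 far above. Its log2 fold change of -0.78 (SE 0.29) did not pass (edgeR adjusted p 0.230). It was -0.20 without CD63 low replicate 2, while Acly passed at -1.19 without CD63 low replicate 1 and at -1.01 without CD63 high replicate 1, with adjusted p-values of 0.00103 and 0.0188 from edgeR.

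The enzymes that follow were far lower in level. Acaca, acetyl-CoA carboxylase 1, was at 5.08 and 5.02 CPM (CD63 high) against 5.18 and 5.52 CPM (CD63 low), the most even of the 33 genes across libraries (log2 fold change -0.08, 95% interval -0.83 to 0.66). Of its 50-base windows 30.4% also occur in transcripts of other gene names, mostly Gm5182, so its level per length, 0.426 to 0.604 TPM, may be an underestimate. Fasn, fatty acid synthase (chromosome 11, 120805846 to 120824547, mm10), was at 29.0 and 24.7 CPM (CD63 high) against 31.0 and 51.4 CPM (CD63 low) (-0.62, SE 0.26, edgeR adjusted p 0.303, and -0.19 without CD63 low replicate 2). Within each library Acly was at 93.5 to 119 times the TPM of Fasn. Whether the fold changes of Acaca and Fasn differ from each other was not tested.

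Among the desaturases, Scd2 carried the second call. Scd2 (chromosome 19, 44293676 to 44306864, mm10), which makes oleate from stearate, was at 49.4 and 45.7 CPM (CD63 high) against 88.1 and 139 CPM (CD63 low). The CD63 high libraries were nearly equal and both CD63 low libraries were above them. Means were 47.6 ± 2.68 CPM and 113.5 ± 36.0 CPM (SD, n = 2 each). The log2 fold change was -1.26 (SE 0.24, edgeR adjusted p 0.0202), -0.87 without CD63 low replicate 2 and -1.55 without CD63 low replicate 1. Scd2 passed in the 4 analyses with 1 library left out, each with a lone library in 1 group and the spread taken from the other, and its call ended with library size as the only scaling (edgeR adjusted p 0.141). Scd1, the isoform that leads in liver and fat, was nearly absent at 16 and 31 counts in CD63 high and 4 and 30 counts in CD63 low libraries. Its log2 fold change of 0.82 has a 95% interval of -1.34 to 2.98, and CD63 low replicate 1 was the low value. Scd2 was at 36.2 to 593 times the TPM of Scd1, a range set by the few Scd1 counts, and 2.66% of the 50-base windows of Scd2 also occur in Scd1. Of this pair Scd2 was the more abundant per length in every library.

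Polyunsaturated fatty acids are made by Fads1 and Fads2 and elongated by Elovl5. Fads2, the delta-6 desaturase, was at 3.22 and 2.35 CPM (CD63 high) against 4.55 and 6.78 CPM (CD63 low), a log2 fold change of -1.02 (SE 0.40, edgeR adjusted p 0.258), from 101 and 65 counts against 138 and 264 counts. Fads1, the delta-5 desaturase, was at 20.5 and 18.7 CPM against 21.5 and 32.5 CPM (-0.46, SE 0.26, edgeR adjusted p 0.450). Per length Fads1 was at 2.77 and 3.47 times the TPM of Fads2 in CD63 high and at 2.06 and 2.09 times in CD63 low libraries. Elovl5 (chromosome 9, 77917364 to 77984519, mm10), the elongase of polyunsaturated chains, was at 113.4 and 112.5 CPM in the CD63 high libraries and at 133 and 147 CPM in the CD63 low libraries (-0.31, 95% interval -0.72 to 0.11). Elovl6, which elongates palmitate to stearate, was at 23.3 and 22.3 CPM against 24.3 and 27.4 CPM (-0.18, 95% interval -0.66 to 0.31). In both elongases the groups were separate by a small margin, and Elovl5 was at 8.88 to 10.0 times the TPM of Elovl6.

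**Figure D4:**
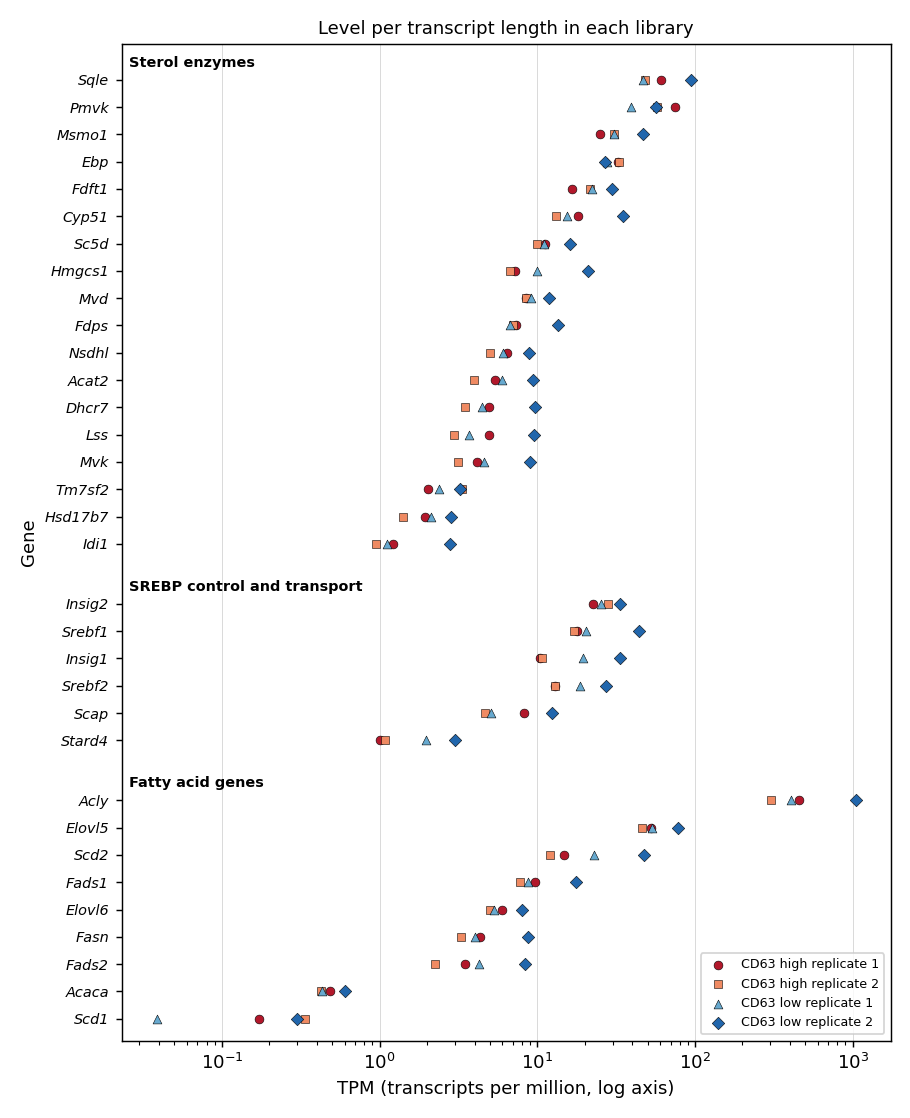
TPM (counts over exon length, scaled to the same total in every library) of each member in the 4 libraries on a log axis, ordered by mean level within each branch. Acly stands alone above 300 TPM, Sqle leads the sterol enzymes, and Acaca and Scd1 lie below 1 TPM in every library.

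Levels per length spread more between genes than between groups. Averaged over the 4 libraries, Acly was at 553 TPM, followed by Sqle (62.8), Elovl5 (57.6) and Pmvk (56.9), which do not differ beyond their spread over libraries, and then by Msmo1 (33.2) and Ebp (30.1). Insig2, Srebf1 and Scd2 (27.3, 24.9 and 24.4 TPM) were next, and the lowest were Stard4 (1.76), Idi1 (1.52), Acaca (0.486) and Scd1 (0.211). Summed over each branch, the sterol enzymes made up 690.2 and 703 CPM (CD63 high) against 724 and 954 CPM (CD63 low). The SREBP control genes summed to 226 and 249 CPM against 315 and 414 CPM, and the fatty acid genes other than Acly to 245 and 232 CPM against 308 and 410 CPM. For each of these sums CD63 low replicate 2 was the highest library.

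Other genes of lipid synthesis and handling were set beside the members from lists named for the pathway. The test called 2 of them. Mlxipl, the carbohydrate response factor that drives lipogenic genes with glucose, fell from 124 and 93.7 CPM in CD63 low to 46.7 and 58.8 CPM in CD63 high libraries (edgeR log2 fold change -1.04, SE 0.22, adjusted p 0.0322), and missed the threshold without CD63 high replicate 1 (edgeR adjusted p 0.154). In it CD63 low replicate 1, not replicate 2, was the highest library. Apoe, an apolipoprotein abundant in macrophages, rose from 14.1 and 26.9 CPM to 103 and 493 CPM (3.86, SE 0.61, edgeR adjusted p 0.00815, and 2.32 without CD63 high replicate 2), highest in the library with the highest summed macrophage markers, whose part in it was not tested.

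None of the 10 genes of SREBP processing and sterol sensing passed (8 below 0, median -0.14). Mbtps1, the site-1 protease that cleaves SREBP, was at 31.6 and 23.4 CPM (CD63 high) against 34.1 and 60.2 CPM (CD63 low), a log2 fold change of -0.78 (SE 0.29, edgeR adjusted p 0.215), and Rnf145, a ubiquitin ligase of sterol sensing, at -0.53 (SE 0.20). Uptake, storage and efflux genes of cholesterol had a median of 0.19 (15 of 18 tested, 1 rose), with Lipa, the lysosomal lipase of cholesterol esters, at 1.27 (SE 0.37, edgeR adjusted p 0.107). Isoprenoid side branches had a median of -0.04 (11 tested, none called), with Pggt1b at -1.09 (SE 0.39) and Srd5a3 at 0.43 (SE 0.22). Acetyl-CoA, malonyl-CoA and NADPH supply had a median of 0.07 (10 of 11 tested, none called). There Acss2, which makes acetyl-CoA from acetate, was at -0.64 (SE 0.26) and Thrsp, a lipogenic accessory gene, at 1.46 (SE 0.59). Other elongation, desaturation and activation genes had a median of 0.10 (17 of 20 tested, none called), with Hacd4 at 4.22 (SE 1.32, from 17 and 36 against 3 and 0 counts) and Elovl1 at 0.62 (SE 0.20). Glycerolipid synthesis had a median of -0.24 (11 of 13 tested, none called), with Agpat4 at 2.38 (SE 0.67) and Gpam, which opens glycerolipid synthesis, at -1.52 (SE 0.49, edgeR adjusted p 0.149). Of the lipogenic factors beside SREBP the median was -0.06 (8 tested, 1 fell), with Mlx at 0.26 (SE 0.21). Each of these list medians lay nearer to 0 than those of the 3 branches of members.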

How the data were processed

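Per the file headers, each library's raw counts, as deposited by the authors, came from featureCounts 1.6.2 in paired-end mode by gene name, with no strand or multi-mapping option, on the annotation of the Cell Ranger mm10 reference. The submitters' processing notes also name STAR 2.6.0c, FastQC and Cell Ranger. With these options, reads that match several places or genes are not counted. Per the labels' protocols, cDNA was amplified with an ultra low input kit. No molecular identifiers are mentioned, so counts are of amplified fragments.

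Genes with low counts were removed by filterByExpr (minimum count 10, total 15), which left 13241 genes. TMM factors and the quasi-likelihood test of edgeR 4.0.16 (R 4.3.3) followed, with no covariates, Benjamini-Hochberg adjustment and a threshold of 0.05. Standard errors are the log2 fold change divided by the root of the F statistic. DESeq2 1.42.0, limma 3.58.1 (voom) and other settings, 13 in all, were the alternatives. TPM used the exon lengths of the tables, orders genes within a library and carries no TMM factor. Sequence sharing was counted in windows of 50 bases over GENCODE M21 transcripts. Motifs were searched in the 250 bases before each start, and the spelling of the sterol response element-like motif was chosen after matches of several spellings had been seen. The replicates differed beyond sampling noise (chi-square per degree of freedom 39.8 for CD63 high and 78.6 for CD63 low). The scripts were tested on simulated data, where 12.9% of 93 genes with a 2-fold change and 95.3% of 107 with a 4-fold change were called. A 2-fold change was thus mostly missed.

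Members and lists were chosen with earlier results of these data known, and lists are described by counts and medians. Each member is named. Values in every library are given for members that were called, had an unadjusted p under 0.05, led a branch per length or belong to the SREBP system or main enzymes, and for others where a sentence turns on them. From each other list the called genes and the 2 with the smallest p are named. One of these lists is not reported here. With 2 libraries a group, exact permutation allows no two-sided p under 0.333.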

Additional observations from a re-analysis of the deposited data

How the results depend on the processing

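Counts of calls, branch medians and the log2 fold changes of members were recomputed under 13 alternatives (12 for Scd1, which 1 filter removed), and so were those of Cd63, Ctsb, Mlxipl and Apoe, which were added after seeing the data. With library size as the only scaling none of these 4 passed. Cd63 and Apoe also missed the threshold with the robust dispersion fit (edgeR adjusted p 0.0523 and 0.349). With the replicate block Cd63 missed it as well (edgeR adjusted p 0.218). Marker and other lists, overlap counts and TPM ratios were not recomputed. The count of called genes, 369 with the design as reported, was 686 with DESeq2, 940 without a filter, 67 with library size as the only scaling and 616 with the replicate block, and 450 to 769 with 1 library left out. Called sterol enzymes numbered 0 as reported (2 lower at an unadjusted p under 0.05 and 1 higher), 1 with DESeq2, without a filter and with the replicate block (Hmgcs1), and 0 to 4 with 1 library left out. Called SREBP control genes numbered 1 as reported, 2 with DESeq2, 4 without a filter, 0 with library size only, and 0 to 3 with 1 library left out. Called fatty acid genes numbered 1 as reported, 2 without a filter, 0 with library size only, and 1 to 3 with 1 library left out. The members called in these settings were all lower in CD63 high cells. Of all tested genes, 0.287% were called and lower as reported, and 0.00755% were with library size only. This share was 1.15% with DESeq2, 1.36% without a filter (18371 genes tested) and 0.612% with the replicate block, so it rose there as well. The branch medians with 1 library left out ranged from -0.93 to -0.48 for the SREBP control genes, from -0.73 to -0.19 for the fatty acid genes and from -0.51 to -0.18 for the sterol enzymes. Log2 fold changes that changed sign were those of Tm7sf2 (-0.0195 with limma-voom, and -0.45 to 0.45 with 1 library left out), Insig2 (-0.38 to 0.13), Sqle (-0.53 to 0.10) and Scap (-0.69 to 0.22), the last 3 with 1 library left out. The causes were not tested. The titles give both groups replicates 1 and 2, which the replicate block uses, but no label says what the numbers mark. The deposited tables number the CD63 low libraries 2 and 3 instead, so that by their numbering 1 pair at most would match, CD63 high replicate 2 with CD63 low replicate 1. What the block adjusts for is therefore unknown. The replicate 1 minus replicate 2 differences of the groups correlated at -0.18 across 13241 genes. Crossing the numbers, an alternative added after seeing the data, gave 942 called genes, 607 higher and 335 lower in CD63 high cells, against 331 and 38 as reported. With library size as the only scaling the median of all tested genes was -0.05. Counts of 100 or fewer in a library limit Scd1, Idi1 and Fads2.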
